A study of Homo sapiens with 4 samples.

Results

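Lipid droplet growth and lipolysis genes are the genes whose products form lipid droplets, make them grow or fuse, break down the stored lipid or sit on the droplet surface. Here 37 such genes were chosen by name, with the perilipins left out, and each matched 1 Ensembl gene ID among the 62655 in the count table. Libraries were made from Hep G2 cells, a long-established hepatocellular carcinoma line that serves as a model of hepatocytes. All 4 libraries came from lipid-loaded cells. The cells were plated at 150000 per ml and received medium rich in oleic acid 24 h later. They were transfected after a further 24 h using HiPerFect reagent. The mimic group (2 libraries) received an oligonucleotide mimic of LysTTT-5'tRF, which corresponds to the 5' part of lysine tRNA whose anticodon is TTT, and the control group (2 libraries) received a negative control oligonucleotide. RNA was taken 24 h after transfection. Control columns of the count table carry the series' abbreviation for the negative control, whereas the other columns carry the number 25, which no label explains. They were read as the mimic because no other group remained, so every direction below rests on that reading. No culture without oleic acid was analysed here, so the values show lipid-loaded cells only.

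Lipid droplets arise in the membrane of the endoplasmic reticulum (ER), where triglyceride collects at sites marked by seipin and bud toward the cytosol with the help of the FITM proteins. They then grow by local lipid synthesis or by transfer of lipid from droplet to droplet, which CIDE proteins promote. In lipolysis, ATGL (PNPLA2) with its co-activator ABHD5 removes the first fatty acid from triglyceride, hormone-sensitive lipase (LIPE) acts on the diglyceride and MGLL on the monoglyceride, while lysosomal acid lipase (LIPA) degrades lipid that reaches lysosomes by autophagy. In hepatocytes the balance of these steps with lipid import and lipoprotein secretion sets how much fat a cell stores.

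Between 15430539 and 18961222 reads per library were assigned to genes. Since the labels do not say whether replicates were separate cultures, the p-values rest on a spread that may be technical. All 12 hepatocyte markers were detected and summed to 51366 and 51036 counts per 1000000 TMM-scaled reads (CPM) in mimic libraries 1 and 2 and to 50205 and 48218 CPM in control libraries 1 and 2. Among these 12, ALB rose with the mimic in the edgeR test described below (adjusted p under 0.05), and 11 did not pass. The log2 fold changes of the 12 lay above 0 in 8 and below 0 in 4, with a median of 0.03. At an unadjusted p under 0.05 in the same test, 5 were higher and 0 lower with the mimic. Over all genes tested those shares were 5.06% and 4.37%. ADIPOQ, LEP, FABP4 and LGALS12 of 8 adipocyte markers, and PTPRC, CD3E, MS4A1, COL1A2, DCN, LUM, KDR and KRT7 among 24 markers of other liver cell types, had 0 reads in every library. Other markers of those lists were present, among them KRT19, SOX9 and EPCAM of the cholangiocyte list, which summed to 931 and 962 CPM with its other members in the mimic and to 951 and 1035 CPM in the control. The 7 immune markers summed to 1620 and 1530 CPM in the mimic and to 1478 and 1474 CPM in the control. LYZ was the only tested gene of that immune list, with a log2 fold change of 0.09, and it did not pass the test described below. On the first principal component of all tested genes (41.6% of the variance) the mimic libraries lay at -17.2 and -4.23 and the controls at 0.95 and 20.5, so libraries of each group also differed along the direction of the comparison.

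Of the 37 genes, 31 passed the filter on low counts and none of the 31 passed edgeR's quasi-likelihood test of the mimic against the control (adjusted p under 0.05). Over all 14464 genes tested, 0.346% passed. At an unadjusted p under 0.05 there were 3 members, with PNPLA6 and METTL7A higher and LPCAT1 lower with the mimic. That is 9.68% of the tested members, beside 9.43% of all genes (5.06% higher and 4.37% lower). Among the 31, 17 log2 fold changes lay above 0 and 14 below (45.2% of members below 0, beside 49.6% of all genes), with a median of 0.02 (all genes, 0.00) and a range from -0.36 to 0.28. Mimic and control values were fully apart in 9 members, 6 higher and 3 lower with the mimic, which is 29% of them beside 39.1% of all genes (19.8% higher and 19.3% lower). In 21 of the 31 the log2 fold change was smaller than 0.1 in size, that is 67.7% of members and 49.3% of all genes. Fewer members than other genes were of low abundance, with 22.6% of them under a mean of 10 CPM against 38.7% of all genes. The reads of all 37 genes together made up 0.292% and 0.290% of gene reads in the mimic libraries and 0.289% and 0.293% in the controls. In RNA from whole cultures, fewer cells of a kind and less RNA per cell cannot be told apart.

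The 95% intervals show which changes these libraries leave possible. In 19 of the 31 members the whole interval lay within a 1.25-fold change in either direction, and in 28 within a 1.5-fold change. The corresponding shares of all tested genes were 43.3% and 67.0%. The 3 members whose intervals reached beyond 1.5-fold were CIDEC, FITM1 and BSCL2, each below 10 CPM in every library.

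**Figure D1:**
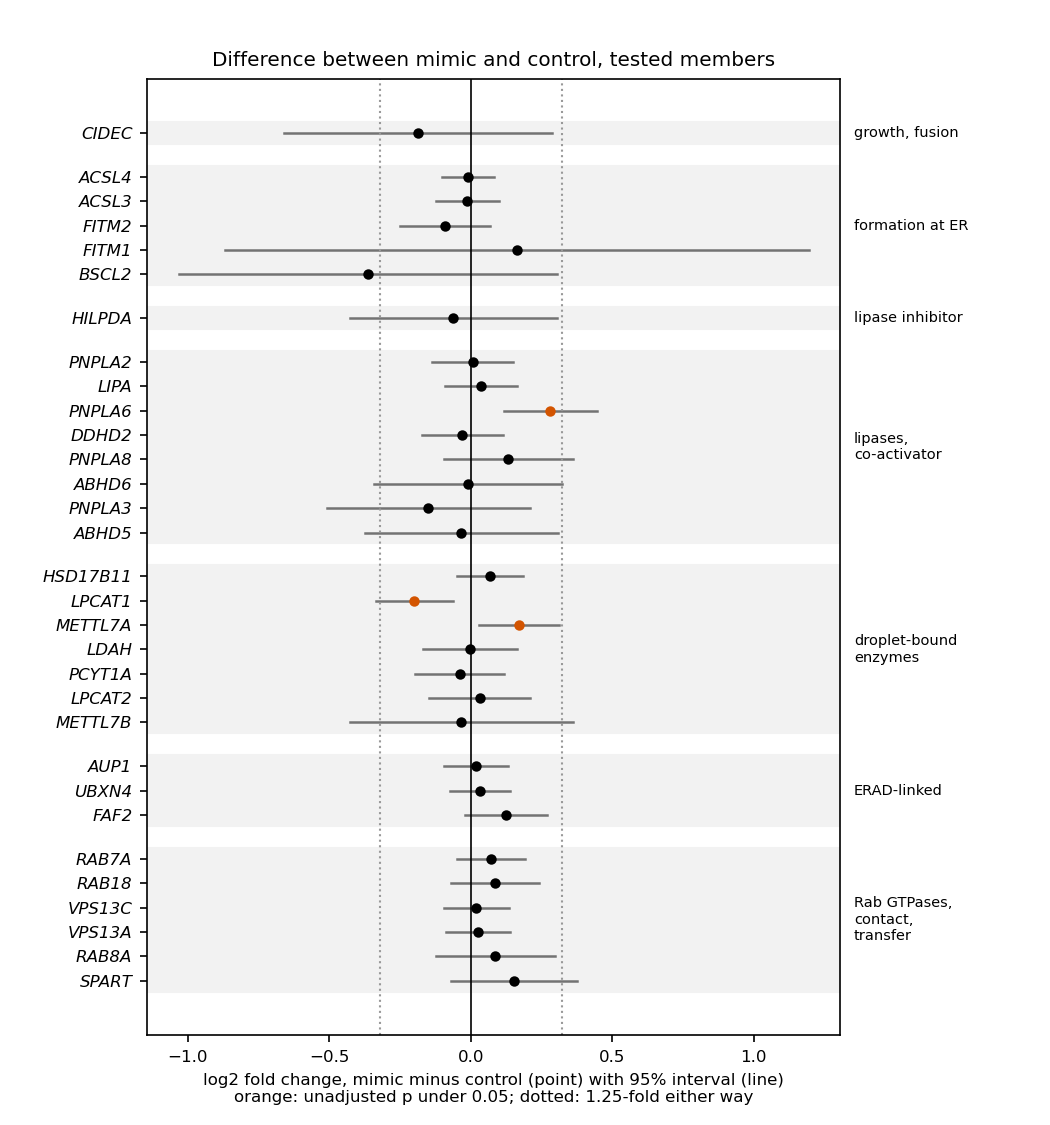
Log2 fold change of each tested member (x axis, mimic minus control) with its 95% interval, genes grouped by role on the y axis, and dotted lines at a 1.25-fold change either way. All 31 points lie between -0.36 and 0.28, and PNPLA6, METTL7A and LPCAT1 (orange) are the 3 whose intervals leave out 0.

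Per kb of exon sequence the members spanned a wide range of levels. ACSL4 had the highest level, with a mean of 87.1 reads per kb of exon per 1000000 TMM-scaled reads (RPKM), followed by RAB7A at 78.9, AUP1 at 74.5 and HSD17B11 at 61.4 RPKM. In this order ACSL4, RAB7A and AUP1 were near each other: ACSL4 lay between 85.2 and 89.5 RPKM, RAB7A between 71.8 and 82.1, and AUP1 between 70.9 and 77.1, so RAB7A and AUP1 overlapped and ACSL4 did not overlap with either. UBXN4 (41.9 RPKM) and ACSL3 (34.8 RPKM) came next. At the low end of the tested members stood ABHD5 at 1.23, FITM1 at 0.73 and BSCL2 at 0.62 RPKM. Of the 31, 11 lay above the 75th percentile of all tested genes by this measure.

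**Figure D2:**
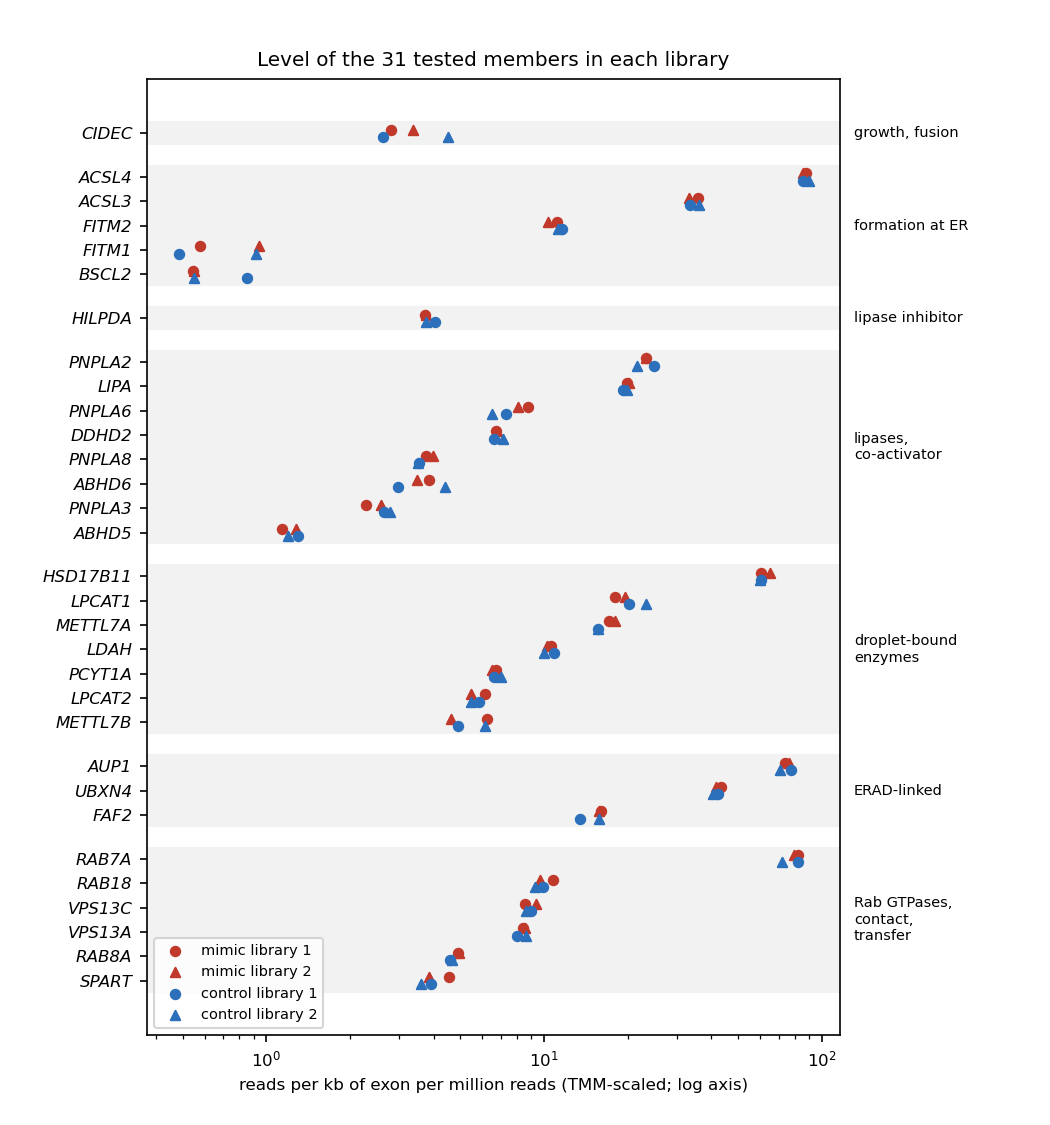
Level of each tested member in each library (x axis, reads per kb of exon per 1000000 TMM-scaled reads, log axis), grouped by role, with mimic libraries in red and control libraries in blue. Genes span from 0.62 RPKM (BSCL2) to 87.1 RPKM (ACSL4), and the 4 points of most genes lie close together.

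The CIDE proteins, which gather at contacts between droplets and drive their fusion, were represented by CIDEC alone. CIDEC (fat-specific protein 27), on chromosome 3 from 9866710 to 9880253 of GRCh38.p14, had 5.42 and 6.49 CPM in mimic libraries 1 and 2 and 5.05 and 8.69 CPM in control libraries 1 and 2. Both mimic values lay between the control values. The log2 fold change was -0.19 (95% interval -0.66 to 0.29, edgeR adjusted p = 0.872), and it was 0.25 without control library 2 and -0.53 without control library 1. The pseudogene CIDECP1 was listed at 0 in all 4 libraries. CIDEA, the form first known from brown fat, had 2 reads in control library 2 and 0 in the other 3.

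CIDEB, the form that is prominent in liver and takes part in lipoprotein lipidation, was listed at 0 in every library. This gene lies on chromosome 14 from 24305187 to 24311435, and in GENCODE 29 100% of its exon sequence is also covered by exons of NOP9 and LTB4R2 on the opposite strand. NOP9 itself had 1415, 1595, 1538 and 1630 reads in the 4 libraries, the mimic given first. In 18 protein-coding genes, antisense exons cover at least 95% of the exon sequence (under 5% on the same strand). Of these, 15 had 0 reads in all libraries, or 83.3%, and CIDEB is itself among them. The share was 20.2% of 129 genes with an antisense overlap of 50 to 95%. It was 9.71% of 5284 genes with antisense overlap only, under 50% of the exon sequence. Of 11070 protein-coding genes with no exon overlap it was 26.3%. The kit marks strand, but whether the counting used strand is not stated in the sources used here. How reads that fall on exons of several genes were counted was not established here either. Whether overlap lowered the count of CIDEB was not tested, and its 0 cannot be read as its level in these cells.

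**Figure D3:**
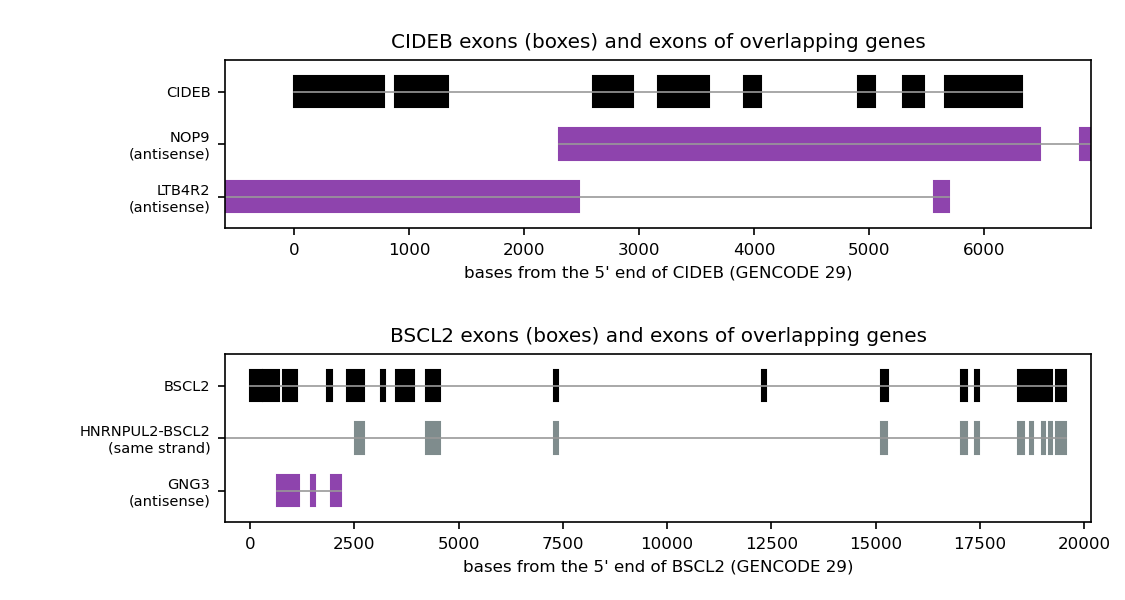
Exons (boxes) of CIDEB and BSCL2 in black with exons of overlapping genes on the opposite strand in purple and on the same strand in grey; the x axis is the distance in bases from the 5' end of the member. Every CIDEB exon is covered by NOP9 or LTB4R2, and BSCL2 shares exons with the readthrough gene HNRNPUL2-BSCL2.

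Other genes of the group with too few reads for the test were G0S2, LIPE, MGLL and HSD17B13. G0S2, a small protein that inhibits ATGL, and LIPE each had 0 reads in all 4 libraries, and a count of 0 allows up to 0.160 to 0.196 CPM per library, for counting error only. The span of G0S2 lies inside that of HSD11B1-AS1 in RefSeq, although their exons do not overlap in GENCODE 29, and HSD11B1-AS1 was at 0 as well. For LIPE 9.6% of the exon sequence lies opposite LIPE-AS1, which had from 2 to 10 reads. How far overlap lowered the counts of G0S2 and LIPE was not tested. MGLL, the monoglyceride lipase, had 2 reads with the mimic, 3 in the control, all from the second library of each group. HSD17B13, a droplet-bound dehydrogenase of hepatocytes, had 3 and 8 reads in mimic libraries 1 and 2 and 1 and 3 in control libraries 1 and 2.

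Of the genes for droplet formation at the ER, all 5 were tested and none passed. FITM2, an ER membrane protein required for droplets to bud, stood at 51.0 and 47.6 CPM in mimic libraries 1 and 2 and at 53.2 and 51.5 CPM in control libraries 1 and 2. Both mimic values were below both control values, by a log2 fold change of -0.09 (95% interval -0.25 to 0.07, edgeR adjusted p = 0.782). Its paralog FITM1, known mainly from muscle, had 12 and 24 reads with the mimic and 11 and 20 in the control. Reads of FITM1 are uncertain because 40.9% of its exon sequence is shared with another gene on the same strand. ACSL3, the acyl-CoA synthetase that moves from the ER to nascent droplets, had 260 and 241 CPM with the mimic and 243 and 262 CPM in the control. ACSL4, which prefers arachidonic acid, had 564 and 550 CPM with the mimic and 547 and 574 CPM in the control. The log2 fold changes of ACSL3 and ACSL4 were both -0.01, with intervals from -0.12 to 0.10 and from -0.10 to 0.08, the narrowest within this group of 5.

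BSCL2, which encodes seipin, was counted at 2.16 and 2.18 CPM in the mimic libraries and at 3.39 and 2.17 CPM in control libraries 1 and 2. Its log2 fold change of -0.36 was the largest in size among the tested members, with an interval from -1.03 to 0.31 (edgeR adjusted p = 0.794). Control library 1 alone stood above the other 3, and the log2 fold change was -0.00 without it and -0.64 without control library 2. In GENCODE 29 40.6% of BSCL2 exon sequence is shared with HNRNPUL2-BSCL2 on the same strand and 11.3% lies opposite GNG3. HNRNPUL2-BSCL2 had 0 reads in every library. Among 309 protein-coding genes with at least 95% of their exon sequence shared on the same strand, 90.0% had 0 reads in every library. BSCL2, with 40.6% shared, lies outside that set, and no such share was taken for genes with an overlap like its own. How far the overlap lowered the count of BSCL2 was not tested.

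HILPDA, a hypoxia-inducible inhibitor of ATGL, was the only inhibitor of lipolysis with enough reads. It stood at 7.71 and 7.77 CPM with the mimic and at 8.38 and 7.76 CPM in the control. Mimic library 1 lay below both controls and mimic library 2 between them. The log2 fold change was -0.06 (95% interval -0.43 to 0.30).

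Of the central lipases PNPLA2 and LIPA were tested, LIPE and MGLL having too few reads. Neither these tested lipases nor the co-activator of ATGL passed. PNPLA2 (ATGL) had 89.4 and 89.7 CPM with the mimic and 95.4 and 82.8 CPM in the control, so both mimic values fell between the controls. Its log2 fold change was 0.01 with an interval from -0.14 to 0.15, which leaves out a change of 1.25-fold either way. ABHD5 (CGI-58), the co-activator of ATGL, had 8.62 and 9.69 CPM with the mimic and 9.81 and 9.0 CPM in the control (log2 fold change -0.03, 95% interval -0.37 to 0.31). LIPA, the acid lipase of lysosomes, had 97.7 and 99.0 CPM with the mimic and 94.1 and 97.9 CPM in the control (0.04, -0.09 to 0.16). An antisense gene covers 10.4% of PNPLA2 exon sequence.

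The other 5 tested hydrolases had log2 fold changes from -0.15 to 0.28, and none passed. PNPLA6 (neuropathy target esterase), an ER lysophospholipase that breaks down phosphatidylcholine and lysophosphatidylcholine, lies on chromosome 19 from 7534164 to 7561767. It stood at 62.6 and 58.0 CPM in mimic libraries 1 and 2 and at 52.3 and 46.6 CPM in control libraries 1 and 2. Both mimic values were above both controls, with means of 60.3 ± 3.30 and 49.5 ± 4.02 CPM (SD, n = 2 each). The log2 fold change was 0.28 (SE 0.08, 95% interval 0.12 to 0.44), a 1.22-fold difference that did not pass over all genes (edgeR adjusted p = 0.168). It ranked 143rd of the 14464 genes by p. Of its exon sequence 10.9% is shared with other genes on the same strand.

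PNPLA8, a calcium-independent phospholipase of mitochondria and peroxisomes, had 21.3 and 22.5 CPM with the mimic and 20.2 and 19.9 CPM in the control. The groups did not overlap, and the log2 fold change of 0.13 had an interval from -0.10 to 0.36 (edgeR adjusted p = 0.771). PNPLA3, a hepatic lipase and transacylase on droplets, had 7.38 and 8.36 CPM with the mimic and 8.56 and 9.0 CPM in the control. Its values did not overlap either, in the opposite direction, with a log2 fold change of -0.15 and an interval from -0.51 to 0.21. ABHD6, which hydrolyses monoglycerides, had 13.8 and 12.5 CPM with the mimic and 10.7 and 15.8 CPM in the control, so that the spread between controls exceeded any difference between groups. DDHD2, a triglyceride lipase best known from neurons, stood at 71.5 and 72.1 CPM with the mimic and at 70.3 and 76.3 CPM in the control (log2 fold change -0.03, 95% interval -0.17 to 0.11).

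The droplet-bound enzymes held the only member lower with the mimic at an unadjusted p under 0.05. LPCAT1 re-acylates lysophosphatidylcholine to phosphatidylcholine, the main phospholipid of the droplet surface, and lies on chromosome 5 from 1461427 to 1523960. It stood at 117 and 127 CPM in mimic libraries 1 and 2 and at 131 and 151 CPM in control libraries 1 and 2. Both mimic values were below both controls, although mimic library 2 and control library 1 were closer to each other than to the other library of their group. The means were 122 ± 7.13 and 141 ± 14.1 CPM (SD, n = 2 each), with a log2 fold change of -0.20 (SE 0.07, 95% interval -0.34 to -0.06). It did not pass over all genes (edgeR adjusted p = 0.274). LPCAT2, its paralog, had 45.7 and 40.5 CPM with the mimic and 43.4 and 40.5 CPM in the control (0.03, -0.15 to 0.21). PCYT1A, the rate-limiting enzyme of phosphatidylcholine synthesis from choline, which binds to growing droplets, had 53.4 and 52.0 CPM with the mimic and 52.6 and 55.7 CPM in the control (-0.04, -0.20 to 0.12).

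METTL7A, a methyltransferase of the ER and droplet surface, lies on chromosome 12 from 50925015 to 50932508 and had 70.0 and 73.4 CPM with the mimic and 63.6 and 63.9 CPM in the control. Both mimic values were above both controls, and the libraries of each group were close together. Its log2 fold change was 0.17 (SE 0.07, 95% interval 0.03 to 0.31) and did not pass (edgeR adjusted p = 0.417). The paralog METTL7B was at 9.41 and 6.97 CPM with the mimic and 7.37 and 9.19 CPM in the control, with the groups overlapping. HSD17B11, a droplet-bound short-chain dehydrogenase, had 147 and 159 CPM with the mimic and 147 and 145 CPM in the control. Its groups touched without overlapping, and the log2 fold change of 0.07 had an interval from -0.05 to 0.19. LDAH, a droplet-associated hydrolase, had 46.9 and 45.5 CPM with the mimic and 48.2 and 44.2 CPM in the control (-0.00, -0.17 to 0.17).

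**Figure D4:**
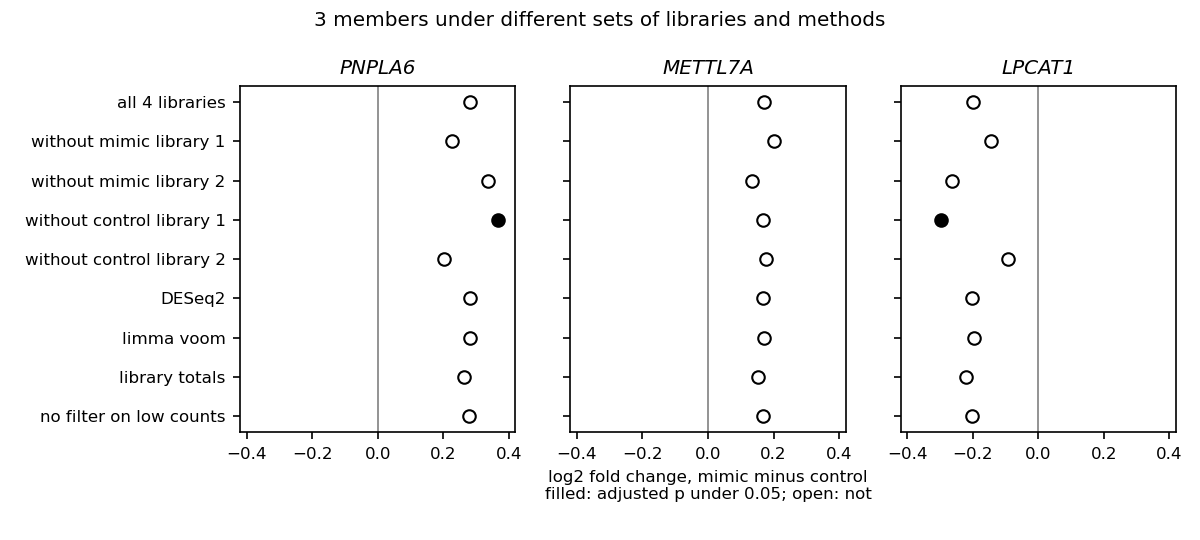
Log2 fold change (x axis, mimic minus control) of PNPLA6, METTL7A and LPCAT1 with all libraries, with each library left out and under other methods; filled points had an adjusted p under 0.05. Among the settings drawn, PNPLA6 and LPCAT1 are filled without control library 1 alone, and each gene keeps its sign. The open DESeq2 point of PNPLA6 stands for a missing adjusted p, and the fit with a block is not drawn.

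PNPLA6 and LPCAT1 passed when control library 1 was left out, and under no other omission and no other scaling, filter or tool. Without it the log2 fold change of PNPLA6 was 0.37 (edgeR adjusted p = 0.00584) and that of LPCAT1 was -0.30 (edgeR adjusted p = 0.00109), while over all genes the number called went from 50 to 424. Without control library 2 the values were 0.20 and -0.09 (edgeR adjusted p = 0.626 and 0.873). With either mimic library left out neither gene passed, with values of 0.23 and 0.34 for PNPLA6 and of -0.15 and -0.26 for LPCAT1. METTL7A moved less, from 0.13 to 0.20 over the 4 omissions, and passed in none. Where 1 control library is left out, the test assumes that the other varies as the mimic libraries do. DESeq2 gave PNPLA6 no adjusted p, so its result with that tool is missing. PNPLA6 and LPCAT1 also passed with a block on the number in the column names. That fit was chosen after seeing the data, leaves 1 residual degree of freedom and is described at the end.

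Proteins that link droplets to ER-associated degradation (ERAD), the pathway that hands ER proteins to the proteasome, all lay slightly above 0 without passing. FAF2 (UBXD8), which recruits the ATPase VCP to droplets, had 95.7 and 94.0 CPM with the mimic and 80.1 and 94.0 CPM in the control. Control library 1 stood apart as the low value, and mimic library 2 and control library 2 were nearly equal. Its log2 fold change of 0.12 had an interval from -0.02 to 0.27 (edgeR adjusted p = 0.622), and it was 0.01 without control library 1 and 0.24 without control library 2 (edgeR adjusted p = 0.963 and 0.273). AUP1, which brings the ubiquitin-conjugating enzyme UBE2G2 to droplets, had 195 and 200 CPM with the mimic and 203 and 187 CPM in the control (0.02, -0.09 to 0.13). Antisense exons cover 18.3% of AUP1 exon sequence. UBXN4, an ER-anchored partner of VCP, had 221 and 213 CPM with the mimic and 216 and 207 CPM in the control (0.03, -0.07 to 0.14).

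The 3 Rab GTPases, the lipophagy receptor spartin and 2 lipid transfer proteins had log2 fold changes between 0.02 and 0.15, and none passed. RAB18, which sits on droplets and aids their contact with the ER, had 67.1 and 60.1 CPM with the mimic and 61.5 and 57.9 CPM in the control, with an overlap of groups. RAB7A, which directs late endosomes and lysosomes to droplets, had 223 and 217 CPM with the mimic and 223 and 195 CPM in the control. RAB8A, a Rab that takes part in CIDEC-dependent droplet fusion, had 25.4 and 25.6 CPM with the mimic and 23.8 and 24.2 CPM in the control. The RAB8A values did not overlap between groups, and the log2 fold change of 0.09 had an interval from -0.12 to 0.30. An antisense gene covers 37.8% of RAB8A exon sequence. SPART (spartin) had 29.5 and 25.1 CPM with the mimic and 25.4 and 23.4 CPM in the control (0.15, -0.07 to 0.37). VPS13A, a bridge-like lipid transporter, had 170 and 173 CPM with the mimic and 162 and 174 CPM in the control, and its relative VPS13C had 168 and 184 CPM against 177 and 170 CPM. Their log2 fold changes were 0.03 and 0.02, with neither interval reaching a 1.25-fold change.

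Ratios between the RNA levels of members in lipid-loaded Hep G2 cells were taken per kb of exon within each library. They compare transcripts and do not give amounts of protein. PNPLA2 RNA exceeded ABHD5 RNA by 19.3 ± 1.55 times with the mimic and by 18.6 ± 0.724 times in the control (SD, n = 2 each). It exceeded PNPLA3 RNA by 7.74 to 10.2 times over the 4 libraries. The LIPA to PNPLA2 ratio lay between 0.772 and 0.925, with both mimic values inside the range of the controls. ACSL4 exceeded ACSL3 from 2.44 to 2.57 times in all libraries. LPCAT1 exceeded LPCAT2 by 2.94 and 3.61 times in mimic libraries 1 and 2 and by 3.45 and 4.27 times in control libraries 1 and 2, so the groups overlapped in this ratio. The PNPLA6 to PNPLA2 ratio was 0.375 and 0.346 with the mimic and 0.294 and 0.302 in the control, with no overlap. These ratios carry no test, and exon lengths from GENCODE 29 count every annotated exon, which understates the level of a gene that uses few of them.

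Genes around this group were read from 8 further lists, in which 1 gene passed. NCEH1, an ER hydrolase of cholesteryl esters and acetylated ether lipids, had 143 and 141 CPM with the mimic and 118 and 105 CPM in the control. It rose by a log2 fold change of 0.35 (95% interval 0.22 to 0.47, edgeR adjusted p = 0.0103), and it was put on its list with this result known. Of 16 tested neutral-lipid hydrolases outside the 37 genes, NCEH1 included, 1 rose and 15 did not pass, beside 0.346% of all genes passing. Of the 16, 12 lay above 0 and 4 below, beside 49.6% of all genes below 0, with a median of 0.06. ABHD2, a monoglyceride hydrolase, stood at 0.24 without passing (edgeR adjusted p = 0.119). CES1, a carboxylesterase that mobilises stored triglyceride in liver, stood at 0.08, with an interval from -0.05 to 0.22. LPL, the lipase that cells secrete to act on plasma lipoproteins, was listed at 0.

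Droplet biogenesis and ER contact genes numbered 27, all tested, with none called, 11 above 0 and a median of -0.02. STX18, a SNARE of the complex that RAB18 recruits to ER contacts, had the smallest p among them (log2 fold change -0.25, 95% interval -0.46 to -0.05, edgeR adjusted p = 0.411). Of 12 genes for the supply of phosphatidylcholine none passed (median 0.03), and the ethanolamine kinase ETNK1 had the smallest p (0.14, 0.02 to 0.26). Of 15 genes for ERAD at droplets none passed (median -0.04), and the channel protein DERL1 had the smallest p (0.25, 0.07 to 0.43, edgeR adjusted p = 0.326). Of 10 tested genes of ARF1 and the COPI coat, which buds small vesicles from droplets and so opens their surface to ATGL, none passed (median -0.02, COPG1 at -0.09).

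In the signalling cascade that activates lipolysis none of 18 tested genes passed (median 0.02). PDE3B, the phosphodiesterase through which insulin restrains lipolysis, had the smallest p (0.17, 0.03 to 0.30, edgeR adjusted p = 0.396). Of 20 genes for lipophagy and lysosomes none passed, 15 lay above 0 and 5 below, beside 49.6% of all genes below 0. The median was 0.06, and the range ran from -0.82 to 0.19. LAMP2, a lysosomal membrane protein needed for autophagy, had 305 and 300 CPM with the mimic and 264 and 267 CPM in the control. Its groups were well apart, with a log2 fold change of 0.19 (95% interval 0.09 to 0.29), but it did not pass (edgeR adjusted p = 0.101). The perilipins, coat proteins that gate access of lipases to droplets, had 4 tested genes, all below 0 and none called (median -0.14). PLIN2 stood at -0.04 (95% interval -0.12 to 0.05) and PLIN4 at -0.24 (-0.57 to 0.09). PLIN3 stood at -0.02 (-0.13 to 0.10). PLIN5, with 11 to 26 reads per library, stood at -0.43 (-1.39 to 0.53).

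**Figure D5:**
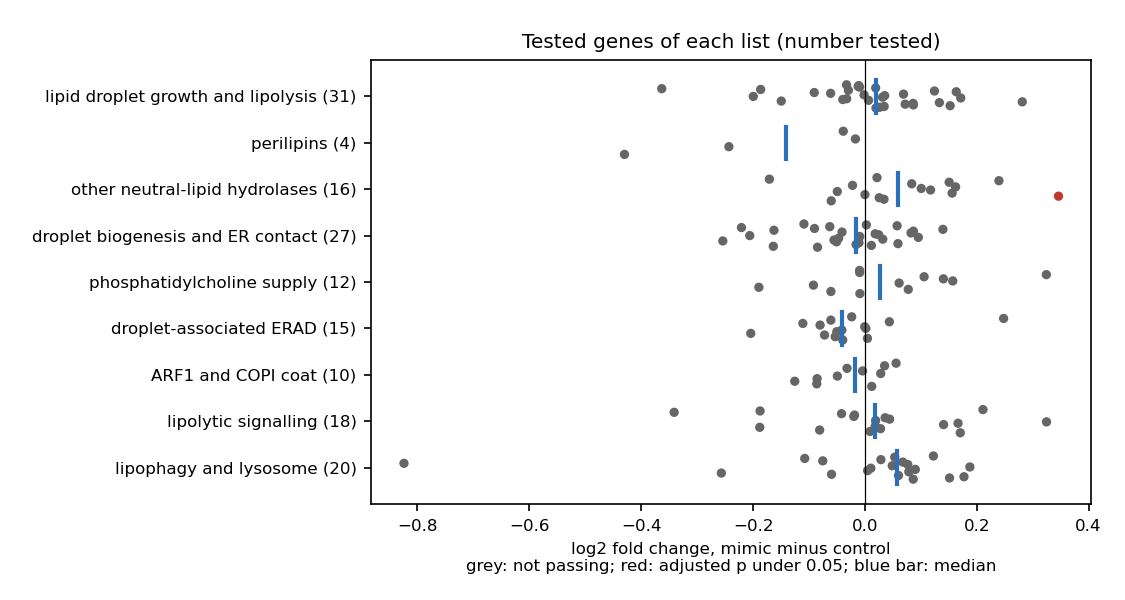
Log2 fold change (x axis, mimic minus control) of each tested gene of the 37-gene group and of 8 related lists, with the median of each list as a blue bar. NCEH1 at 0.35 is the only red point (adjusted p under 0.05), and the medians lie between -0.14 and 0.06.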

How the data were processed

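The authors deposited raw counts of reads per Ensembl gene for 4 poly(A)-selected libraries, per the file headers made with HTSeq from aligned reads free of rRNA. Per the labels' protocols, RNA integrity numbers were above 9.5 and a stranded KAPA kit took 500 ng of RNA. The submitters' processing notes name STAR, Bowtie2, FastQC, HTSeq and the build GRCh38.p14; no version, annotation release or strand setting is given in the sources used here. HTSeq's 5 summary entries (23.1% to 24.1% of each column) were left out.

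The test used edgeR 4.0.16 (R 4.3.3): filterByExpr (minimum count 10, minimum total 15), TMM factors, quasi-likelihood F test (legacy = FALSE) of mimic against control, Benjamini-Hochberg adjustment over 14464 genes, threshold 0.05. Standard errors and 95% intervals come from the F statistic and its degrees of freedom. In simulated counts for this comparison (14151 genes) 52.2% of 1.25-fold, 86.6% of 1.5-fold and 98.5% of 2-fold changes were called. Of the 172 genes called there, 14 were false calls. How far these shares hold for members with few reads, such as BSCL2, FITM1 and CIDEC, was not tested. RPKM used exon lengths of GENCODE 29, which also gave overlaps; positions are RefSeq's. Members and lists were chosen with earlier results of these data known. All members are named, and from each related list the called genes or the gene with the smallest p. ABHD2, CES1, LPL, PLIN2, PLIN3, PLIN5 and the markers ALB and LYZ were added after their values were seen. Alternatives were other scalings, filters, DESeq2 1.42.0, limma 3.58.1 (voom), legacy = TRUE, each library left out and, chosen after seeing the data, a block on the number in the column names.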

Additional observations from a re-analysis of the deposited data

How the results depend on the processing

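No member of the group passed under any of 8 alternatives of scaling, filter or test. Leaving out each library gave from 0 to 2 members called (2 without control library 1, PNPLA6 and LPCAT1) and from 20 to 424 genes called over the whole table. Without a filter on low counts, 0 genes passed edgeR's test (1514 at an unadjusted p under 0.05), whereas with the filter limma voom called 50, and DESeq2 with its own filtering called 37. DESeq2 gave an adjusted p to 14 members, and none to PNPLA6. The members' median log2 fold change was -2.3e-05 with library totals and at most 0.03 elsewhere. Signs of small differences were less stable: 19 of 31 members kept theirs without control library 2 and 23 without mimic library 2. The labels number the samples 1 to 4 and pair none, but the columns carry the numbers 1 and 2 in each group. With that number as a replicate block, a fit chosen after seeing the data that leaves 1 residual degree of freedom, 2 members passed, PNPLA6 (log2 fold change 0.29, edgeR adjusted p = 0.0088) and LPCAT1 (-0.20, edgeR adjusted p = 0.0129), and 306 genes in all, the 50 of the unblocked fit included. Across genes, deviations of same-numbered libraries from their group means had a correlation of 0.0306. That value includes genes with few reads and cannot by itself show whether libraries were paired. The main fit used no block because the titles share no number between the groups. The omissions of samples 3 and 4 were carried out on control columns 1 and 2. All 7 tested members under a mean of 10 CPM had 95% intervals reaching beyond a 1.25-fold change.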
